A study of Arabidopsis thaliana with 15 samples.

Results

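The 37 genes described here encode cytosolic 60S ribosomal proteins of Arabidopsis thaliana, the proteins of the large ribosomal subunit. They were taken by gene identifier from 16 protein families, L3, L4, L5, L8, L9, L10, L10a, L12, L13, L18, L23a, L24, L35a, P0, P1 and P2, out of 37361 genes in the deposited tables, by a rule that uses no measured value. Earlier results of these data were known when they were chosen. L35a, P1 and P2 have further genes outside the 37. A filter on low counts left 36 of the 37, and 21456 of all genes, for testing. The gene that did not pass, AT3G51190 (L8), had 1 count in each of the 3 mock CuAAC libraries and none in the other 12. In the 3 mRNA-seq libraries together a count of 0 allows up to 0.228 CPM for it, a limit that covers counting error only.

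The libraries came from seedlings of the ecotype Col-0, aged 12 days and grown under 16 h of light and 8 h of dark, and all were made from poly(A) RNA. NAD-seq tags RNA whose 5′ end carries NAD+ and pulls it down on streptavidin through biotin added by a click reaction, which needs a copper catalyst in CuAAC and none in SPAAC. Before tagging, RNA was either exposed to an antibody against the m7G cap, with the unbound RNA kept (m7G-depleted), or treated the same way without it (mock). Mock RNA was sequenced by mRNA-seq and captured by SPAAC and by CuAAC, and m7G-depleted RNA was captured by both, which makes 5 groups of 3 libraries. A capture without the tagging enzyme was not analysed here, so the captured libraries can hold RNA that carried no tag. The labels do not say whether the replicates of a group came from separate batches of seedlings, so p-values measure the spread between libraries, which may be technical.

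Library totals ran from 3806556 counts (mock mRNA-seq) to 19798778 (mock SPAAC). Nuclear protein-coding genes held 60.4 ± 4.25% of the counts in mRNA-seq (SD, n = 3) and means of 91.4% to 96.3% in the 4 captured groups. Genes for rRNA held 20.49 to 29.99% in mRNA-seq libraries and 0.2989 to 3.535% in captured ones. Organelle genes held 9.248 to 11.03% and 0.2744 to 2.906%. TMM scaling factors were 0.6458 to 0.7577 in mRNA-seq and 1.042 to 1.172 in captured libraries. These differences make the scaling between mRNA-seq and captured libraries matter. The shoot markers RBCS1A, CAB1 and RCA each had means of at least 5104 CPM, and the root marker PYK10 had means of 1074 to 1922 CPM. The other root markers moved in different ways, with CASP1 at a mean of 18.7 CPM in mRNA-seq, 6.36 and 8.73 in mock SPAAC and CuAAC and 2.22 and 2.36 after depletion, and TIP2;3 at means of 19.8 to 62.4 CPM. The seed storage genes CRA1, CRC and SESA1 had means of at most 0.671, 0.103 and 0.0174 CPM. The part of these marker differences in the results was not tested. CPM is a count divided by the TMM-scaled library total and multiplied by 1e6.

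Each 60S subunit carries 1 copy of most of its proteins and a stalk that several copies of the acidic proteins build, and in Arabidopsis almost every one of these proteins is encoded by several paralogous genes that are highly expressed in growing tissue. Their mRNAs normally carry an m7G cap. NAD+ can take the place of ATP as the first nucleotide of a transcript, which then begins with an adenosine next to the nicotinamide, and decapping enzymes of the DXO family can remove such a cap. In plants, promoters of ribosomal protein genes are known for site II elements and telo boxes, short motifs that lie shortly before the transcription start.

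The annotated starts of these genes are shown for the 8 families in which the group means of the lead gene's share, described further on, spanned the most, 14.3 points or more, since the first base bears on which transcripts can carry NAD+. Each line gives 20 bases before the start and the first 10 of the transcript from RefSeq TAIR10.1, 5′ to 3′, with the start base in capitals.
SAG24 (AT1G66580, L10), chr1:24839070-24839099, plus strand: aatatctaaatgggcctagcTaagcagtta
SAC52 (AT1G14320, L10), chr1:4888094-4888123, plus strand: caaatctctttaatatgtaaTgcgctttaa
RPL10B (AT1G26910, L10), chr1:9321630-9321659, plus strand: gttacgcctttcttcttcttCttcttcttc
AT1G33120 (L9), chr1:12010859-12010888, plus strand: acatatgaaagatatttaggGttttttctc
PGY2 (AT1G33140, L9), chr1:12023205-12023234, plus strand: ttagtgggctgaattttgatAaaggcccac
AT4G10450 (L9), chr4:6464549-6464578, minus strand: aacaaaacctagagacgaccTatatataag
AT3G53430 (L12), chr3:19810511-19810540, minus strand: taatttagcatcggaacaaaAgaaacccta
AT2G37190 (L12), chr2:15620147-15620176, minus strand: gtctctttcgtaaaccctaaTtttcacact
AT5G60670 (L12), chr5:24381590-24381619, minus strand: aagacgaaaccctagaagctGagagtgagt
BBC1 (AT3G49010, L13), chr3:18168691-18168720, minus strand: ctatttaaagctcgtaaaccCtagacttgg
AT5G23900 (L13), chr5:8065541-8065570, minus strand: caacaactagggtttcatttTatatatcga
RPL18 (AT3G05590, L18), chr3:1621335-1621364, plus strand: aagtccaaacttattgtggtCttatattca
AT5G27850 (L18), chr5:9873047-9873076, plus strand: tttgggcccaaatagcctaaAgcgaagata
RPL24A (AT2G36620, L24), chr2:15352004-15352033, minus strand: ttttatttattagaggccatCaaatctttg
STV1 (AT3G53020, L24), chr3:19662016-19662045, minus strand: aaaatggcattgggtgaaatGtgaagtctc
AT3G09200 (P0), chr3:2825232-2825261, minus strand: taaatgggcctaatttgtgaAaaggcccaa
AT3G11250 (P0), chr3:3521309-3521338, plus strand: gatcacaaattaatcaaaacAaacacgaac
AT2G40010 (P0), chr2:16710763-16710792, minus strand: taatgttaaacatgttgggcAatattggcc
AT2G27720 (P2), chr2:11818210-11818239, plus strand: accgagaaatgccatacgcaGgcgatgttt
AT2G27710 (P2), chr2:11816614-11816643, plus strand: ttgagaaattttctcatcacCtttaaaatt

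Of the 37 genes, 8 (21.6%) have A at the annotated start, 7 have G, 11 have C and 11 have T, while 43.4% of all 27443 nuclear protein-coding genes have A there. The annotated start is the most upstream of 1 to 5 annotated transcript starts for each gene. The deposited counts cover whole genes, so the start in use and the base at the 5′ end of captured RNA were not measured. In the 250 bases before the start, TGGGCC or TGGGCT (site II) occurs on either strand in 27 of the 37 genes (73.0%) and in 19.2% of all nuclear protein-coding genes, and AAACCCTA (telo box) occurs on either strand in 6 of 37 (16.2%) and in 4.49%. The site II and telo box letters do not overlap each other in the windows printed here.

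The 150 bases before the start are shown for the L12 and L24 genes, the families with the widest change in balance, with site II and telo box letters in capitals (TAIR10.1, 5′ to 3′).
AT3G53430 (L12), chr3:19810521-19810670, minus strand: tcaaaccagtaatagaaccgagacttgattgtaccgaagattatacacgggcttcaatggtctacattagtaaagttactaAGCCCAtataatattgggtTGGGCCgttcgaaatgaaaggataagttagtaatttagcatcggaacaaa
AT2G37190 (L12), chr2:15620157-15620306, minus strand: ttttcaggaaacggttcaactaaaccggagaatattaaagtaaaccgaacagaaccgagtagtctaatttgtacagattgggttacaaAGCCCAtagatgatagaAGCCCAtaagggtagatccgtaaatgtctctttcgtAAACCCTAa
AT5G60670 (L12), chr5:24381600-24381749, minus strand: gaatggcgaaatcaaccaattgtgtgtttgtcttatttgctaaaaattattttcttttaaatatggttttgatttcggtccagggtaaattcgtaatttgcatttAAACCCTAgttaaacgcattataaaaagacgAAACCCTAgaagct
RPL24A (AT2G36620, L24), chr2:15352014-15352163, minus strand: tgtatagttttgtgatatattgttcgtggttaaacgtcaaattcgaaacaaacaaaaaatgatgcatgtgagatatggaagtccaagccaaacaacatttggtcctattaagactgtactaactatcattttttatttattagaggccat
STV1 (AT3G53020, L24), chr3:19662026-19662175, minus strand: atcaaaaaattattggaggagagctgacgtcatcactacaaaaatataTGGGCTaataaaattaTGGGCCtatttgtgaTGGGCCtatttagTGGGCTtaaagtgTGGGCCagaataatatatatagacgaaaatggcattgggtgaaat
Within this stretch STV1 has several site II matches and RPL24A has none, while AT5G60670 has telo boxes and no site II match. Over the 36 tested genes the median log2 fold change of mock SPAAC against mRNA-seq was -0.50 for the 26 with site II and -0.76 for the 10 without. By annotated start base it was -0.87 for the 7 genes with A, -0.40 for the 11 with C, -0.52 for the 7 with G and -0.73 for the 11 with T. These medians are descriptions with no test, and the ranges overlapped, running from -1.57 to 1.41 for A and from -1.50 to 0.50 for T.

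The levels per length in mRNA-seq spanned close to 2 orders of magnitude among the tested genes. RP1 (AT1G43170, L3) was highest at 269 ± 5.41 CPM per kb (SD, n = 3), and SAC52 (AT1G14320, L10) at 249 ± 9.85, EMB2296 (AT2G18020, L8) at 244 ± 4.69 and the P0 gene AT3G09200 at 243 ± 0.992 followed, with differences among these last 3 within their SDs. STV1 (AT3G53020, L24) came next at 189.6 ± 19.9 CPM per kb. The lowest tested genes were RPL10B (AT1G26910, L10) at 8.98 ± 1.13, RPL3B (AT1G61580, L3) at 7.11 ± 1.61 and the P0 gene AT2G40010 at 3.46 ± 0.640 CPM per kb. In mock SPAAC the order at the top was different, with SAG24 (AT1G66580, L10) at 181 ± 23.6 CPM per kb, followed by AT5G02870 (L4) at 157 ± 21.2 and AT3G09630 (L4) at 153 ± 14.5, whose SDs overlap.

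**Figure D1:**
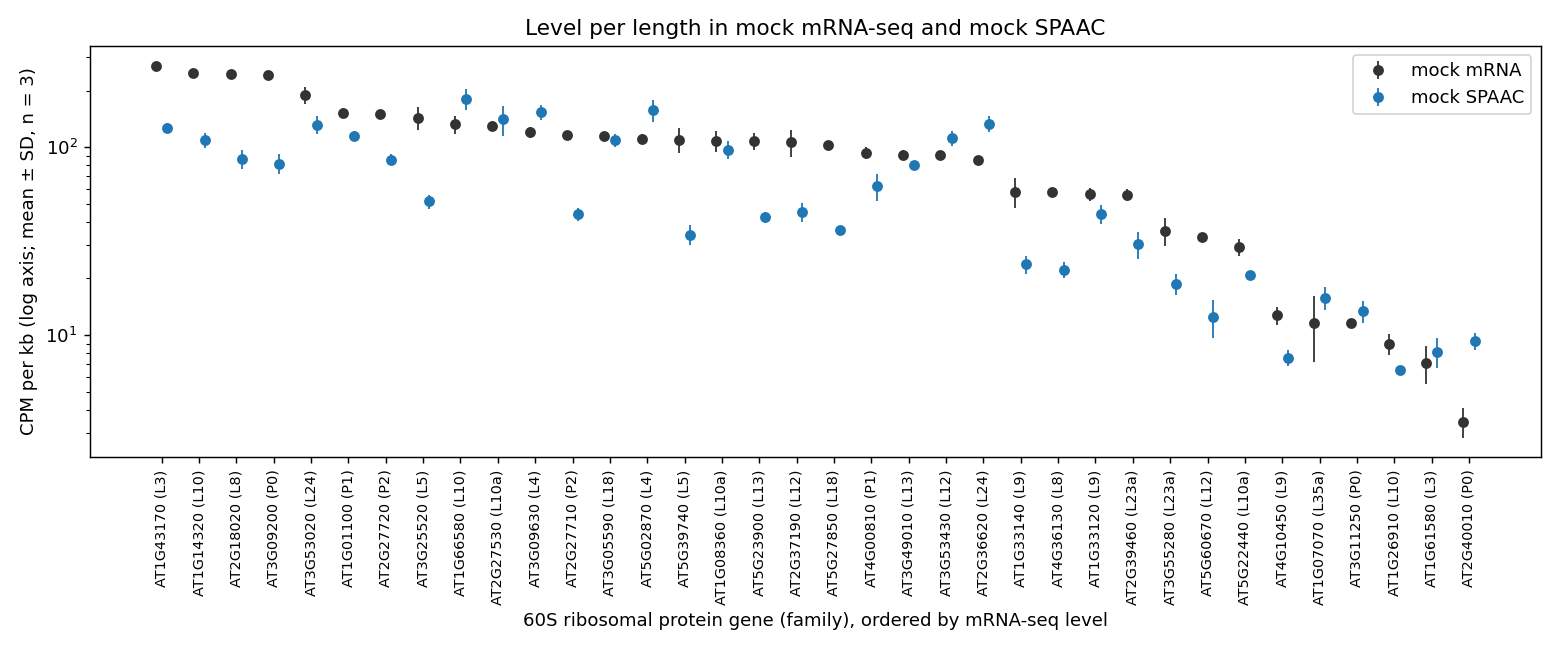
Level of each tested 60S ribosomal protein gene as CPM per kb of exon length (log axis), ordered by the mock mRNA-seq mean; points are means and bars SDs of 3 libraries for mock mRNA-seq and mock SPAAC. RP1 leads mRNA-seq at 269 CPM per kb, and many of the highest genes, RP1 and AT3G09200 among them, sit lower in mock SPAAC, while RPL24A and the L4 genes sit higher.

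The comparison of mock SPAAC and mock CuAAC with mRNA-seq asked which transcripts the captures hold more or less of than the RNA they started from. In each, 13 of the 36 tested 60S genes were lower and 1 was higher at an adjusted p under 0.05 and at least 2-fold (edgeR quasi-likelihood test with Benjamini-Hochberg adjustment over all genes). Of all tested genes 5.17% were lower and 1.9% higher in mock SPAAC, and 11.2% were lower and 5.09% higher in mock CuAAC. By adjusted p alone 21 of the 36 were lower and 6 of the 36 higher in SPAAC, against 15% and 17.4% of all genes. In CuAAC 20 of the 36 were lower and 9 of the 36 higher, against 24.4% and 20.9% of all genes. The median log2 fold change of the 60S genes was -0.56 in SPAAC, against 0.07 for all genes, and -0.52 in CuAAC, against 0.01. With library totals in place of TMM scaling no 60S gene was lower and 7 were higher in SPAAC, and none was lower and 8 were higher in CuAAC. Of all 21456 genes 356 were lower and 6901 higher on that scale in SPAAC, and 1012 and 5599 in CuAAC. The 13 lower genes of each capture kept negative values there, from -0.97 to -0.38 in SPAAC and from -0.94 to -0.41 in CuAAC, none reaching 2-fold, and values near or above 0 described next are higher on that scale. Under library totals the median of all genes moved to 0.80 in SPAAC and 0.62 in CuAAC, and that of the 60S genes was 0.65 and 0.54 below it. For each gene below, changes are log2 fold changes ± SE, SPAAC before CuAAC. In these bulk libraries a lower value cannot be divided into fewer cells with the transcript and fewer transcripts per cell.

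**Figure D2:**
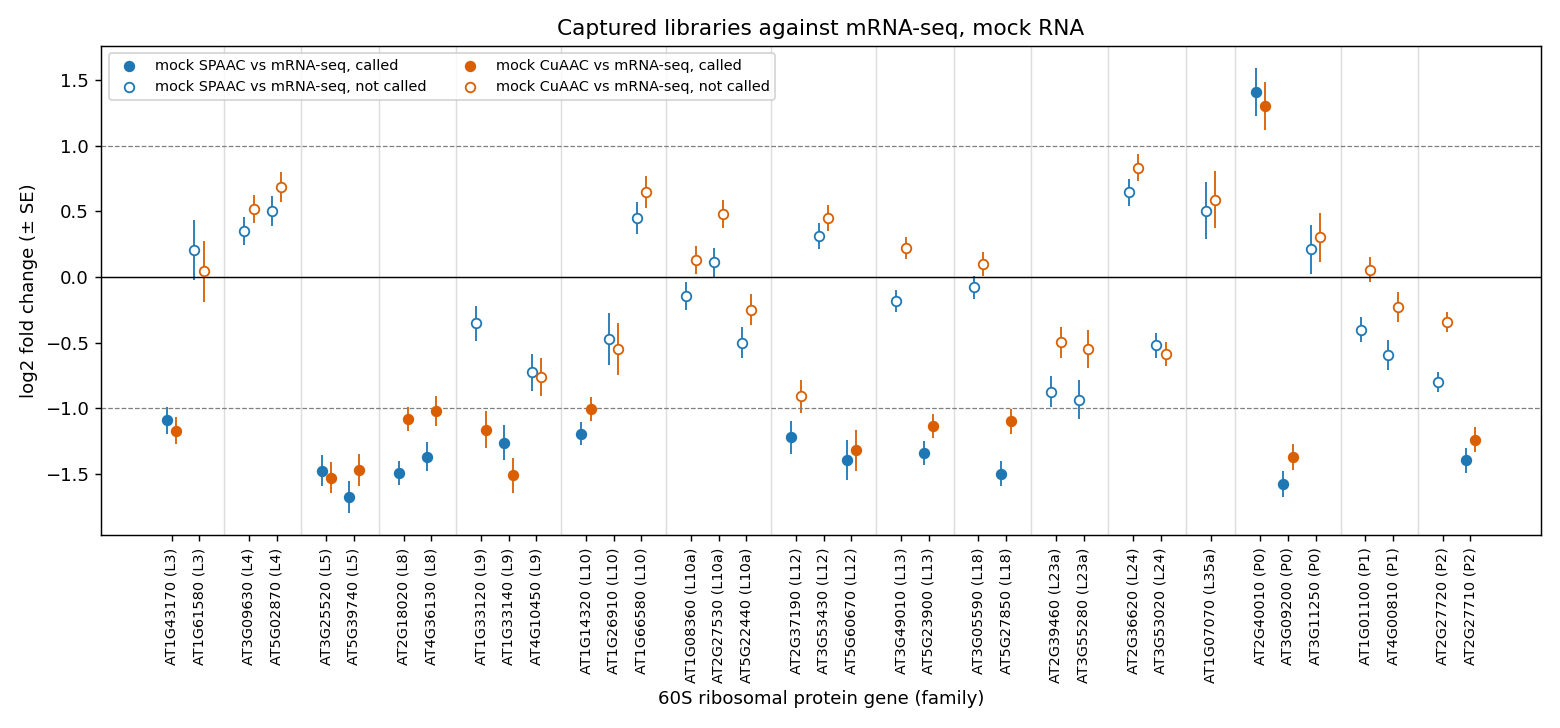
Log2 fold change (± SE) of each tested 60S ribosomal protein gene in mock SPAAC (blue) and mock CuAAC (orange) against mock mRNA-seq, with paralogs of a family side by side; filled points passed an adjusted p under 0.05 and the 2-fold lines (dashed). Both L5 and both L8 genes lie below -1 in both captures, both L4 genes lie above 0, and the L10, L12, L13, L18 and P0 families are split between low and higher paralogs.

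L3 lies close to the peptidyl transferase centre of the ribosome. RP1 (AT1G43170) had 461, 467 and 479.5 CPM in the mRNA-seq libraries, 211, 235 and 214 in mock SPAAC and 210.2, 228.5 and 187 in mock CuAAC, and its m7G-depleted libraries had 195, 216 and 194 (SPAAC) and 221.5, 303 and 238 (CuAAC). RP1 was lower in mock SPAAC (log2 fold change -1.09 ± 0.10, adjusted p = 4.04e-08) and in mock CuAAC (log2 fold change -1.17 ± 0.10, adjusted p = 8.17e-09), and none of its mRNA-seq libraries overlapped those of a capture. RPL3B (AT1G61580) had 8.72, 9.71 and 13.3 CPM in the mRNA-seq libraries, 9.95, 12.1 and 14.3 in mock SPAAC and 11, 11.1 and 10.4 in mock CuAAC, and its m7G-depleted libraries had 4.15, 6.06 and 4.75 (SPAAC) and 2.33, 5.66 and 5.17 (CuAAC). RPL3B, its lowly expressed paralog, had overlapping libraries in the 3 mock groups and changes of 0.20 ± 0.23 and 0.04 ± 0.23, neither called.

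L4 lines part of the exit tunnel for the growing chain. AT3G09630 had 186.5, 212 and 195 CPM in the mRNA-seq libraries, 234, 279 and 242 in mock SPAAC and 269, 298 and 281 in mock CuAAC, and its m7G-depleted libraries had 121, 156 and 135.5 (SPAAC) and 158, 204 and 174 (CuAAC). AT5G02870 had 172, 196 and 182 CPM in the mRNA-seq libraries, 236, 299.8 and 243 in mock SPAAC and 276, 308 and 299 in mock CuAAC, and its m7G-depleted libraries had 152, 205 and 172.5 (SPAAC) and 208, 258.5 and 219.6 (CuAAC). Both genes were above mRNA-seq in every mock capture library, with AT3G09630 at 0.35 ± 0.11 (adjusted p = 0.0136) in SPAAC and AT5G02870 at 0.50 ± 0.11 (adjusted p = 0.00159). Neither reached 2-fold in SPAAC, nor in CuAAC at 0.52 ± 0.11 and 0.69 ± 0.11.

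L5 carries the 5S rRNA into the subunit. ATL5 (AT3G25520) had 189.9, 247 and 206 CPM in the mRNA-seq libraries, 71.6, 84.2 and 74.5 in mock SPAAC and 67.65, 82.5 and 72.05 in mock CuAAC, and its m7G-depleted libraries had 58.4, 69.7 and 62 (SPAAC) and 62.4, 84.3 and 71.7 (CuAAC). RPL5B (AT5G39740) had 138, 180.4 and 141 CPM in the mRNA-seq libraries, 43.3, 54.3 and 46 in mock SPAAC and 51.7, 59.95 and 53.7 in mock CuAAC, and its m7G-depleted libraries had 43.2, 48.8 and 41.5 (SPAAC) and 54.2, 71.3 and 56.3 (CuAAC). ATL5 was lower in mock SPAAC (log2 fold change -1.48 ± 0.12, adjusted p = 3.93e-09) and mock CuAAC (-1.53 ± 0.12), and RPL5B was lower at -1.67 ± 0.12 (adjusted p = 1.2e-09) and -1.47 ± 0.12. All 3 mRNA-seq libraries of each gene were above every captured library.

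L8 sits near the catalytic centre and contacts the small subunit, and loss of EMB2296 stops embryo development in Arabidopsis. EMB2296 (AT2G18020) had 288, 282 and 293 CPM in the mRNA-seq libraries, 95.8, 116 and 94.35 in mock SPAAC and 135, 142 and 131 in mock CuAAC, and its m7G-depleted libraries had 57.2, 61.8 and 56 (SPAAC) and 98.5, 88.5 and 82 (CuAAC). AT4G36130 had 67.5, 70.1 and 75.1 CPM in the mRNA-seq libraries, 26.2, 30.6 and 25.5 in mock SPAAC and 37.4, 36.45 and 30.65 in mock CuAAC, and its m7G-depleted libraries had 17.5, 20.5 and 16.35 (SPAAC) and 23.3, 27.4 and 27.6 (CuAAC). EMB2296 was lower at -1.50 ± 0.09 (adjusted p = 5.46e-11) in SPAAC and -1.08 ± 0.09 (adjusted p = 3.76e-09) in CuAAC, and AT4G36130 at -1.37 ± 0.11 and -1.02 ± 0.11. The CuAAC call of AT4G36130 ended without mock mRNA-seq replicate 2 (-0.99), mock mRNA-seq replicate 3 (-0.95) or mock CuAAC replicate 3 (-0.90), and with no filter on low counts (-0.9939). AT4G36130 overlaps AT4G36140 on the opposite strand over 295 bases, and the labels do not say whether counting kept the strands apart, so its values are uncertain.

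L9 is encoded by a pair of neighbouring genes on chromosome 1, AT1G33120 and PGY2 (AT1G33140), and by AT4G10450. PGY2 is known in Arabidopsis for a leaf polarity phenotype of its mutants. AT1G33120 had 59.9, 52 and 59.2 CPM in the mRNA-seq libraries, 39.3, 49 and 46.2 in mock SPAAC and 22.6, 28.1 and 26 in mock CuAAC, and its m7G-depleted libraries had 31, 34.6 and 29 (SPAAC) and 20.4, 26.6 and 33.3 (CuAAC). PGY2 (AT1G33140) had 46.25, 67.3 and 60.2 CPM in the mRNA-seq libraries, 24.2, 26.3 and 21.1 in mock SPAAC and 20.1, 22.3 and 17.65 in mock CuAAC, and its m7G-depleted libraries had 14.3, 17.1 and 15.3 (SPAAC) and 21.3, 20.7 and 24 (CuAAC). AT4G10450 had 17.3, 21.5 and 20.1 CPM in the mRNA-seq libraries, 10.8, 13 and 11.3 in mock SPAAC and 10.4, 12.5 and 11.4 in mock CuAAC, and its m7G-depleted libraries had 7.62, 9.74 and 8.94 (SPAAC) and 8.76, 10.6 and 9.275 (CuAAC). PGY2 was lower in both captures, at -1.26 ± 0.13 and -1.51 ± 0.14, AT1G33120 was lower in CuAAC (log2 fold change -1.17 ± 0.14, adjusted p = 8.59e-07) and not called in SPAAC (log2 fold change -0.35 ± 0.14, adjusted p = 0.0517), and AT4G10450 was not called. Of the 50-base words of AT1G33120, 53.7% also occur in PGY2. The sources do not state how reads from such stretches were counted, so the division between these genes is uncertain.

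L10 joins late in assembly, and Arabidopsis L10 proteins are known as targets of the immune receptor kinase NIK1. SAC52 (AT1G14320) had 301, 325 and 319 CPM in the mRNA-seq libraries, 132, 152 and 129 in mock SPAAC and 150.5, 175 and 145 in mock CuAAC, and its m7G-depleted libraries had 126.5, 138.5 and 121 (SPAAC) and 153, 142 and 151 (CuAAC). SAG24 (AT1G66580) had 170, 137 and 149 CPM in the mRNA-seq libraries, 236, 206 and 182 in mock SPAAC and 275, 217 and 226 in mock CuAAC, and its m7G-depleted libraries had 174, 140.5 and 139 (SPAAC) and 221, 179.5 and 199 (CuAAC). RPL10B (AT1G26910) had 9.22, 8.33 and 10.7 CPM in the mRNA-seq libraries, 6.41, 7.2 and 6.82 in mock SPAAC and 6.51, 6.51 and 6.36 in mock CuAAC, and its m7G-depleted libraries had 4.55, 6.97 and 5.38 (SPAAC) and 8.21, 7.5 and 5.17 (CuAAC). SAC52 was lower in SPAAC (log2 fold change -1.19 ± 0.09, adjusted p = 1.39e-09) and at the edge of the 2-fold threshold in CuAAC (log2 fold change -1.0039, adjusted p = 1e-08). That CuAAC call ended under 7 of the 15 settings that each left out 1 library, with values up to -0.92 without mock CuAAC replicate 3, and with no filter on low counts (-0.9768), where 11 of the 36 were lower in CuAAC. SAG24, named for its rise in senescing leaves, was above mRNA-seq in all libraries of both mock captures, at 0.45 ± 0.12 (adjusted p = 0.00743) and 0.65 ± 0.12 (adjusted p = 0.000194), under 2-fold. RPL10B was not called, at -0.47 ± 0.20 and -0.55 ± 0.20.

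L10a forms the mobile L1 stalk of the subunit. PGY1 (AT2G27530) had 141, 156 and 145 CPM in the mRNA-seq libraries, 157, 189 and 131 in mock SPAAC and 201, 215 and 199 in mock CuAAC, and its m7G-depleted libraries had 83.4, 100.2 and 85.05 (SPAAC) and 137.5, 148 and 132 (CuAAC). AT5G22440 had 36.9, 38.2 and 31.3 CPM in the mRNA-seq libraries, 23.8, 26 and 25.2 in mock SPAAC and 32.2, 29 and 28 in mock CuAAC, and its m7G-depleted libraries had 27, 27.5 and 25.1 (SPAAC) and 29, 39.6 and 32.3 (CuAAC). None of the 3 L10a genes was called in either capture. The third paralog, AT1G08360, ranged from 74.12 to 137 CPM over the 15 libraries. PGY1 (AT2G27530) was 0.48 ± 0.11 (adjusted p = 0.00111) in CuAAC, past the adjusted p and under 2-fold.

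L12 lies at the base of the stalk that binds elongation factors. AT3G53430 had 101.5, 113 and 113 CPM in the mRNA-seq libraries, 127, 149.9 and 129 in mock SPAAC and 144, 145 and 156 in mock CuAAC, and its m7G-depleted libraries had 74.3, 98.1 and 83.1 (SPAAC) and 102, 100.4 and 102 (CuAAC). AT2G37190 had 87.6, 119 and 95.7 CPM in the mRNA-seq libraries, 38.25, 48.1 and 42.3 in mock SPAAC and 51.6, 58.75 and 49.3 in mock CuAAC, and its m7G-depleted libraries had 12.1, 14.1 and 13.5 (SPAAC) and 20.4, 25.9 and 19.1 (CuAAC). AT5G60670 had 34.4, 37.1 and 37.2 CPM in the mRNA-seq libraries, 12.8, 17.2 and 11.1 in mock SPAAC and 13.7, 14.6 and 15.1 in mock CuAAC, and its m7G-depleted libraries had 15.7, 14.8 and 12.2 (SPAAC) and 15.5, 13.2 and 18.95 (CuAAC). AT5G60670 was lower in both captures (-1.39 ± 0.15 and -1.32 ± 0.16) and AT2G37190 was lower in SPAAC (log2 fold change -1.22 ± 0.12, adjusted p = 1.21e-07) and not called in CuAAC (log2 fold change -0.91 ± 0.12, adjusted p = 3.55e-06). AT3G53430 was above mRNA-seq in each mock capture library, at 0.31 ± 0.10 and 0.45 ± 0.10, not called.

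L13 and L18 are proteins of the solvent side of the subunit. BBC1 (AT3G49010) had 136, 149 and 134 CPM in the mRNA-seq libraries, 116, 130.1 and 122 in mock SPAAC and 159.9, 174 and 154 in mock CuAAC, and its m7G-depleted libraries had 124, 128 and 116.5 (SPAAC) and 173.5, 198 and 181 (CuAAC). AT5G23900 had 89.9, 109.6 and 105 CPM in the mRNA-seq libraries, 40.25, 42.5 and 37.05 in mock SPAAC and 47.7, 44.2 and 46.15 in mock CuAAC, and its m7G-depleted libraries had 31.5, 33.4 and 36.2 (SPAAC) and 49.1, 50.05 and 50.1 (CuAAC). Of the L13 genes, AT5G23900 was lower in both captures, at -1.34 ± 0.09 (adjusted p = 3.59e-10) and -1.14 ± 0.09, and BBC1 was not called at -0.19 ± 0.08 and 0.22 ± 0.08. RPL18 (AT3G05590) had 146, 148.5 and 146 CPM in the mRNA-seq libraries, 131, 151.5 and 134 in mock SPAAC and 155, 169.6 and 146.5 in mock CuAAC, and its m7G-depleted libraries had 51.2, 62.9 and 57.1 (SPAAC) and 74.4, 82 and 81 (CuAAC). AT5G27850 had 151, 154 and 158 CPM in the mRNA-seq libraries, 52.2, 57.4 and 54.3 in mock SPAAC and 71.3, 78.5 and 66.1 in mock CuAAC, and its m7G-depleted libraries had 20.8, 25.4 and 24 (SPAAC) and 31.6, 37.65 and 34.2 (CuAAC). Of the L18 genes, AT5G27850 was lower at -1.50 ± 0.09 (adjusted p = 8.28e-11) and -1.10 ± 0.09 and RPL18 was not called at -0.08 ± 0.09 and 0.10 ± 0.09, its mock SPAAC libraries overlapping those of mRNA-seq. AT5G27850 overlaps genes on the opposite strand over 412 bases, so its values are uncertain, as for AT4G36130. Among these genes, AT5G27860 had means of 34.2 CPM in mRNA-seq, 22.15 and 27.6 in mock SPAAC and CuAAC, and 20.1 and 23.4 in m7G-depleted SPAAC and CuAAC.

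L23a sits at the exit of the tunnel, where chaperones and the signal recognition particle bind. RPL23AA (AT2G39460) had 84.8, 96.45 and 85.3 CPM in the mRNA-seq libraries, 47.7, 56.6 and 40.6 in mock SPAAC and 60.9, 69.7 and 57.3 in mock CuAAC, and its m7G-depleted libraries had 33.8, 37.6 and 30.4 (SPAAC) and 52.95, 61.5 and 53.1 (CuAAC). RPL23AB (AT3G55280) had 28.1, 30.5 and 38.9 CPM in the mRNA-seq libraries, 15.5, 19.4 and 16 in mock SPAAC and 20.25, 21.8 and 24.6 in mock CuAAC, and its m7G-depleted libraries had 12.2, 17.1 and 14.1 (SPAAC) and 18.7, 20.5 and 21.7 (CuAAC). RPL23AA and RPL23AB were -0.87 ± 0.12 and -0.93 ± 0.15 in SPAAC, short of 2-fold, and RPL23AB was called lower without mock mRNA-seq replicate 1 (-1.06) or mock SPAAC replicate 2 (-1.04), as was RPL23AA without the latter (-1.002).

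L24 reaches toward the small subunit, and STV1 is known in Arabidopsis for reinitiation of translation after upstream reading frames and for gynoecium patterning. RPL24A (AT2G36620) had 82.8, 87.1 and 78.7 CPM in the mRNA-seq libraries, 119.5, 143 and 125 in mock SPAAC and 150.3, 155.5 and 136 in mock CuAAC, and its m7G-depleted libraries had 73, 93.1 and 79.4 (SPAAC) and 98.1, 117 and 102 (CuAAC). STV1 (AT3G53020) had 159.8, 183 and 149.5 CPM in the mRNA-seq libraries, 112, 127 and 103 in mock SPAAC and 109.8, 114 and 103 in mock CuAAC, and its m7G-depleted libraries had 55.6, 61.5 and 56.2 (SPAAC) and 58, 63.2 and 63.7 (CuAAC). The L24 genes lay on opposite sides of their mRNA-seq levels in both captures without reaching 2-fold. RPL24A was 0.64 ± 0.10 (adjusted p = 5.33e-05) in SPAAC and 0.83 ± 0.10 (adjusted p = 1.16e-06) in CuAAC, and STV1 was -0.52 ± 0.09 (adjusted p = 0.000175) and -0.59 ± 0.09 (adjusted p = 2.75e-05). AT1G07070 had 6.75, 11.45 and 5.69 CPM in the mRNA-seq libraries, 9.95, 12.5 and 9.94 in mock SPAAC and 11, 12.35 and 10.9 in mock CuAAC, and its m7G-depleted libraries had 2.9, 3.16 and 2.83 (SPAAC) and 6.16, 3.83 and 6.36 (CuAAC). AT1G07070, the only L35a gene among the 37, had mRNA-seq libraries that overlapped those of both mock captures and was not called in either.

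P0 is the base of the acidic stalk, and P1 and P2 bind to it as dimers and recruit elongation factors. AT3G09200 had 354, 355 and 357 CPM in the mRNA-seq libraries, 122, 132 and 103 in mock SPAAC and 146, 144 and 122 in mock CuAAC, and its m7G-depleted libraries had 159, 174 and 150.5 (SPAAC) and 219, 245 and 206 (CuAAC). AT2G40010 had 5.76, 5.55 and 4.03 CPM in the mRNA-seq libraries, 13.2, 15.2 and 12.5 in mock SPAAC and 13.1, 13.1 and 11.8 in mock CuAAC, and its m7G-depleted libraries had 12.85, 13.8 and 10.7 (SPAAC) and 12.9, 15.8 and 12.85 (CuAAC). AT3G09200 was lower in SPAAC (log2 fold change -1.57 ± 0.10, adjusted p = 1.12e-10) and CuAAC (log2 fold change -1.37 ± 0.10, adjusted p = 4.71e-10), and AT2G40010 was the 1 gene higher in both (log2 fold change 1.41 ± 0.18, adjusted p = 3.1e-06 and log2 fold change 1.30 ± 0.18, adjusted p = 5.71e-06). AT2G40010 overlaps AT2G40008 on the opposite strand over 741 bases, and AT2G40008 went from a mean of 3.18 CPM in mRNA-seq to 8.54 in mock SPAAC and 6.30 in mock CuAAC, so how much of that increase belongs to either gene is uncertain. AT3G09200 shares exon bases with AT3G09210 on the same strand. The sources do not state how reads from such bases were counted, so its values are uncertain too. The third P0 gene, AT3G11250, ranged from 9.61 to 21.6 CPM over the 15 libraries and was not called.

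AT2G27720 had 168.5, 169 and 178 CPM in the mRNA-seq libraries, 93.4, 106 and 97.3 in mock SPAAC and 139.9, 142 and 125.5 in mock CuAAC, and its m7G-depleted libraries had 60.5, 62.95 and 59.2 (SPAAC) and 87.2, 87.1 and 91.6 (CuAAC). AT2G27710 had 105, 112 and 111 CPM in the mRNA-seq libraries, 41.5, 44.6 and 38.25 in mock SPAAC and 43.3, 49.7 and 45.5 in mock CuAAC, and its m7G-depleted libraries had 33.9, 38.25 and 32.6 (SPAAC) and 38.9, 43.9 and 37.5 (CuAAC). Of these P2 genes, which lie next to each other on chromosome 2, AT2G27710 was lower in both captures (-1.40 ± 0.09 and -1.24 ± 0.09) and AT2G27720 was past the adjusted p and under 2-fold, at -0.80 ± 0.08 and -0.34 ± 0.08. AT1G01100 had 137, 122.5 and 130.1 CPM in the mRNA-seq libraries, 96.3, 105.5 and 93.9 in mock SPAAC and 133, 136 and 136 in mock CuAAC, and its m7G-depleted libraries had 63.1, 61.6 and 55.4 (SPAAC) and 85.2, 65.8 and 81.9 (CuAAC). AT4G00810 had 83.4, 76.3 and 72 CPM in the mRNA-seq libraries, 51.8, 59.5 and 42.7 in mock SPAAC and 69.97, 65.1 and 63.4 in mock CuAAC, and its m7G-depleted libraries had 31.8, 38.4 and 29.3 (SPAAC) and 48.6, 45.8 and 48.4 (CuAAC). The P1 genes were not called, with AT1G01100 at -0.40 ± 0.09 and 0.05 ± 0.09 and AT4G00810 at -0.59 ± 0.12 and -0.23 ± 0.12.

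The balance between paralogs was measured as the percentage of a family's counts per kb held by its lead gene, the one with the highest mean level, which does not depend on the scaling of the library. A family here is its tested genes among the 37. The shares of P1 and P2 therefore leave out AT5G47700 (P1), AT3G28500 and AT3G44590 (P2). In 12 of the 15 families with at least 2 tested genes the share differed among the 5 groups at an adjusted p under 0.05 (two-sided exact permutation test over all 1401400 divisions of the libraries, Benjamini-Hochberg over 15 families). The test asks for any difference among the 5 groups and does not say which groups differ. For a single pair of groups 3 against 3 libraries cannot give an exact p below 0.1. The widest change was in L12, where AT3G53430 held 39.5 ± 2.17% in mRNA-seq, 66.1 ± 0.869% in mock SPAAC and 64.0 ± 2.42% in mock CuAAC. It held 72.2 ± 2.44% and 69.2 ± 1.18% after depletion with SPAAC and CuAAC (adjusted p = 5.14e-05, exact permutation). Its 3 mRNA-seq libraries ran from 37.0 to 41.0% and the 12 captured ones from 61.5 to 74.1%.

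STV1 held 68.9 ± 1.17% of L24 in mRNA-seq, 49.7 ± 1.55% in mock SPAAC and 45.4 ± 0.549% in mock CuAAC. Its share with depletion was 44.2 ± 1.75% with SPAAC and 39.5 ± 1.81% with CuAAC (adjusted p = 2.50e-05, exact permutation). RPL24A, in the minority in mRNA-seq, held the larger part in 3 of the 4 captured groups and close to an equal part in mock SPAAC. SAG24 held 33.9 ± 3.27% of L10 in mRNA-seq, 61.0 ± 3.55% in mock SPAAC and 61.4 ± 4.50% in mock CuAAC. With depletion it held 55.0 ± 3.96% in SPAAC and 58.2 ± 1.64% in CuAAC (adjusted p = 0.00291, exact permutation). In the order mRNA-seq, mock SPAAC, mock CuAAC, depleted SPAAC and depleted CuAAC, BBC1 held 45.9 ± 2.11, 65.4 ± 1.55, 68.5 ± 1.99, 69.2 ± 2.35 and 69.5 ± 1.26% of L13 (adjusted p = 0.00197, exact permutation). In that order RPL18 held 52.9 ± 0.625, 75.0 ± 0.650, 72.1 ± 0.272, 74.3 ± 0.407 and 73.1 ± 0.921% of L18 (adjusted p = 5.08e-05, exact permutation). In L12, L24, L10, L13 and L18 no mRNA-seq library fell within the range of the captured libraries.

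The acidic stalk families differed among the captures as well. AT3G09200 held 94.2 ± 0.132% of P0 in mRNA-seq, 78.2 ± 2.53% in mock SPAAC and 80.5 ± 0.712% in mock CuAAC, and 86.7 ± 0.714% and 88.7 ± 1.48% in the m7G-depleted SPAAC and CuAAC libraries (adjusted p = 2.50e-05, exact permutation). The remainder includes AT2G40010, and the reads of both AT2G40010 and AT3G09200 are uncertain as given above. AT2G27720 held 56.4 ± 0.818% of P2 in mRNA-seq, 66.2 ± 1.37% and 70.7 ± 1.71% in mock SPAAC and CuAAC, and 58.9 ± 1.28% and 64.5 ± 2.40% after m7G depletion (adjusted p = 2.50e-05, exact permutation). Both families thus had m7G-depleted libraries between those of mRNA-seq and of the mock capture by the same chemistry.

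The L9 gene AT1G33120 held 44.6 ± 6.00% in mRNA-seq, 58.4 ± 3.12% and 47.8 ± 2.64% in mock SPAAC and CuAAC, and 59.4 ± 1.93% and 47.9 ± 4.85% after m7G depletion (adjusted p = 0.00435, exact permutation), with its shared sequence as a limit. Its SPAAC libraries were thus above the CuAAC libraries of the same RNA. Smaller changes passed the test in L3, L4, L5 and L10a. AT5G02870 held 48.0 ± 0.138% of L4 in mRNA-seq, 50.6 ± 0.976% in mock SPAAC and 50.9 ± 0.510% in mock CuAAC, and 56.1 ± 0.582% and 56.0 ± 0.606% after m7G depletion (adjusted p = 0.00013, exact permutation). ATL5 held 60.1 ± 0.791% of L5 in mock SPAAC and 55.7 ± 0.609% in mock CuAAC. Shares of L8 (adjusted p = 0.0940), L23a (adjusted p = 0.560) and P1 (adjusted p = 0.0828) did not pass the exact permutation test. L8 passed without m7G-depleted CuAAC replicate 1 (adjusted p = 0.00268, exact permutation), and P1 passed without m7G-depleted SPAAC replicate 2 (adjusted p = 0.0414) and with labels permuted within replicate number, a replicate block (adjusted p = 0.0254). Group means of these 3 families lay within 3.79 points for L8, 4.39 for L23a and 5.37 for P1.

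**Figure D3:**
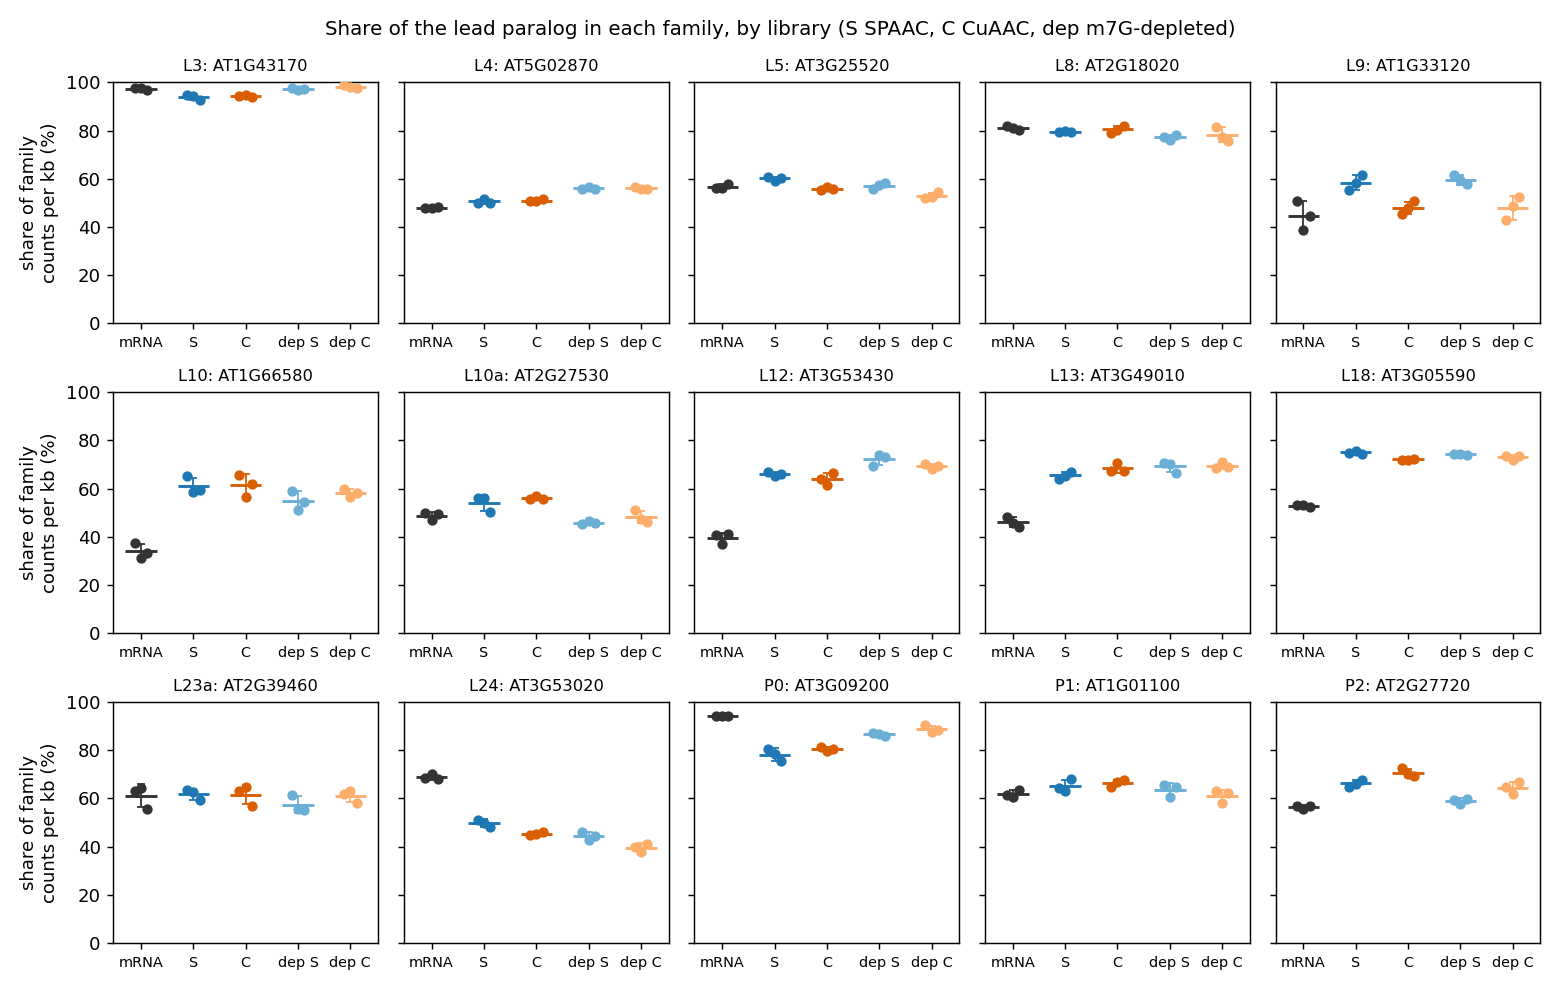
Share (%) of a family's counts per kb held by its lead gene in each of the 15 libraries, 1 panel per family, with group mean (line) and SD (bar) of 3 libraries. A family is its tested genes among the 37. S is SPAAC, C is CuAAC and dep is m7G-depleted. L10, L12, L13 and L18 step up from mRNA-seq to the captures (L12 from 39.5% to 66.1% in mock SPAAC), L24 and P0 step down, and the group means of L8 lie within 3.79 points.

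Summed over all 37 genes, the 60S transcripts held 0.518 ± 0.0240% of nuclear protein-coding counts in mRNA-seq, 0.355 ± 0.0234% in mock SPAAC and 0.380 ± 0.0165% in mock CuAAC (SD, n = 3). With depletion the share was 0.262 ± 0.0149% in SPAAC and 0.332 ± 0.0157% in CuAAC. The share differed among the 5 groups (p = 1.36e-05, two-sided exact permutation test, smallest possible p 7.14e-07). The lowest mRNA-seq library, at 0.502%, lay above the highest captured one, at 0.396%. As a share of all counts the order changed, to 0.313 ± 0.0371% in mRNA-seq and 0.342 ± 0.0225% in mock SPAAC, whose libraries overlapped, and the 5 groups differed at p = 0.00115 (exact permutation).

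**Figure D4:**
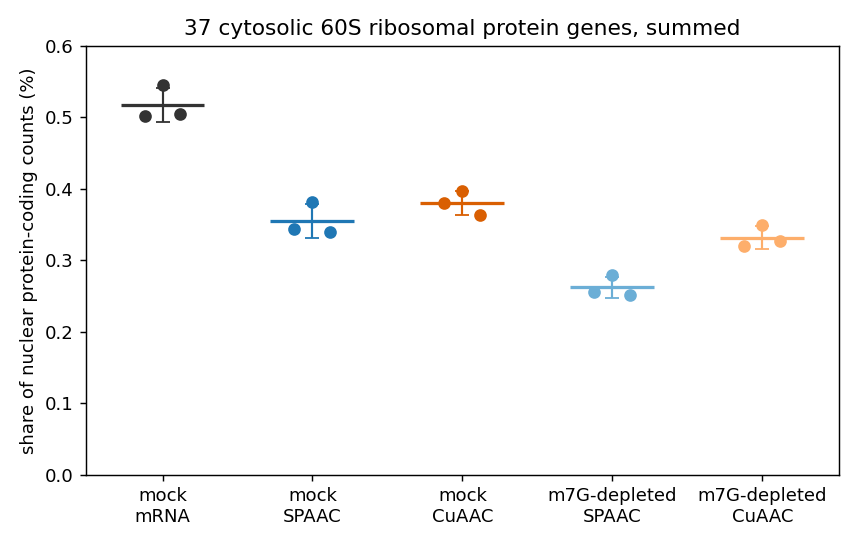
Share (%) of nuclear protein-coding counts held by the 37 cytosolic 60S ribosomal protein genes together, by library (points), with group mean (line) and SD (bar), n = 3. The mRNA-seq libraries, at a mean of 0.518%, lie above all captured libraries, and m7G-depleted SPAAC is lowest at 0.262%.

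The click chemistries were compared on the same kind of RNA. None of the 36 tested genes was called between mock SPAAC and mock CuAAC, where 0.508% of all tested genes were lower and 6.47% higher in SPAAC (edgeR quasi-likelihood test with Benjamini-Hochberg adjustment). DESeq2 also called none, and 17 of the 36 genes had an unadjusted p under 0.05, against 9598 of all 21456. By adjusted p alone 12 of the 36 were lower and 1 of the 36 higher, against 15.1% and 21.5% of all genes. The differences ran from -0.46 to 0.81 on the log2 scale with a median of -0.19, against -0.02 with a replicate block and length offsets, where the median of all genes was -0.07. The values farthest from 0 were AT1G33120 of L9 at 0.81 ± 0.13 (adjusted p = 6.67e-05), AT2G27720 of P2 at -0.46 ± 0.08 (adjusted p = 8.51e-05), AT1G01100 of P1 at -0.46 ± 0.09 (adjusted p = 0.000471) and EMB2296 of L8 at -0.42 ± 0.09 (adjusted p = 0.000851). After m7G depletion none was called either, against 0.895% lower and 7.3% higher among all genes, and DESeq2 called none. There 26 of the 36 had an unadjusted p under 0.05, against 9992 of all 21456. By adjusted p alone 25 of the 36 were lower and 0 of the 36 higher, against 17.3% and 21.7% of all genes. There the median was -0.39 and the values ran from -0.89 to 0.24, and with a replicate block and length offsets the median was -0.25. AT1G07070 was at -0.89 ± 0.23 (adjusted p = 0.00412), RPL23AA at -0.72 ± 0.12 (adjusted p = 5.4e-05), AT2G37190 at -0.72 ± 0.14 (adjusted p = 0.000295) and PGY1 at -0.64 ± 0.11 (adjusted p = 7.66e-05). AT1G07070 was called lower there without m7G-depleted CuAAC replicate 2 (-1.07).

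The comparison of m7G-depleted with mock RNA within each chemistry asked what the captures hold after the antibody step. How much m7G-capped RNA that step removed was not measured here. In SPAAC 5 of the 36 genes were lower, where 9.66% of all tested genes were lower and 7.37% higher. In CuAAC 4 were lower, where 8.24% of all tested genes were lower and 6.32% higher. None of the 36 was higher in either (edgeR quasi-likelihood test with Benjamini-Hochberg adjustment, and by DESeq2). By adjusted p alone 26 of the 36 were lower and 1 of the 36 higher in SPAAC, against 26.7% and 27.5% of all genes. In CuAAC 17 of the 36 were lower and 2 of the 36 higher, against 23% and 24.3% of all genes. The median log2 fold change of the 60S genes was -0.53 in SPAAC and -0.26 in CuAAC, against -0.01 and 0.01 for all genes. AT1G07070 is one of several genes of L35a, a protein needed for 60S maturation in yeast and humans, and the others lie outside the 37. AT1G07070 fell from 10.8 ± 1.49 to 2.96 ± 0.174 CPM in SPAAC (log2 fold change -1.87 ± 0.20, adjusted p = 9.12e-08) and was lower in CuAAC (log2 fold change -1.06 ± 0.21, adjusted p = 0.000263). The L12 gene AT2G37190 fell in both, at -1.70 ± 0.13 (adjusted p = 8.08e-10) and -1.29 ± 0.13 (adjusted p = 8.28e-08), while its paralog AT3G53430 was at -0.67 ± 0.10 and -0.55 ± 0.10 and AT5G60670 at 0.05 ± 0.15 and 0.14 ± 0.16. RPL3B fell in both, at -1.28 ± 0.21 and -1.31 ± 0.24, and the L18 gene AT5G27850 at -1.22 ± 0.09 and -1.06 ± 0.10. RPL18 fell in SPAAC (log2 fold change -1.28 ± 0.09, adjusted p = 2.81e-10) and was just short of 2-fold in CuAAC (log2 fold change -0.99 ± 0.09, adjusted p = 1.89e-08). In none of these called genes did the m7G-depleted libraries overlap the mock libraries. The calls were made on these same libraries, so the lack of overlap adds no support.

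In CuAAC the call of AT1G07070 ended without mock CuAAC replicate 2 (-0.98) or m7G-depleted CuAAC replicate 2 (-0.87), that of AT5G27850 without mock CuAAC replicate 2 (-0.985), and that of RPL3B without m7G-depleted CuAAC replicate 1 (-0.9999). RPL18 was called lower there without mock CuAAC replicate 3, m7G-depleted CuAAC replicate 2 or m7G-depleted CuAAC replicate 3, at -1.04 to -1.01. STV1 was called lower in SPAAC without mock SPAAC replicate 3 (-1.05) or m7G-depleted SPAAC replicate 2 (-1.03).

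AT3G09200 of P0 was above the mock capture in every m7G-depleted library, at 0.44 ± 0.10 (adjusted p = 0.000739) in SPAAC and 0.70 ± 0.10 (adjusted p = 5.65e-06) in CuAAC, past the adjusted p and under 2-fold. Across all 21456 genes the log2 fold change of depletion moved with gene length, with a Spearman coefficient of 0.56 in SPAAC and 0.52 in CuAAC, and between mock SPAAC and mock CuAAC it was 0.56. These are descriptions across genes, which share libraries and are not replicates. The tested 60S genes have a median length of 1189 bases, against 1719 for all tested genes, and among them the coefficient was 0.20 in SPAAC and 0.18 in CuAAC (n = 36). A replicate block was also run with offsets that remove each library's length trend. With these, 2 of the 36 genes, AT2G37190 and AT1G07070, were lower in SPAAC. In CuAAC RPL3B was lower and AT3G09200 higher, at 1.01. Of all 21456 genes 1086 were lower and 717 higher in SPAAC, and 978 and 720 in CuAAC. The medians of the 60S genes were -0.12 and 0.04, against 0.03 and 0.04 for all genes.

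**Figure D5:**
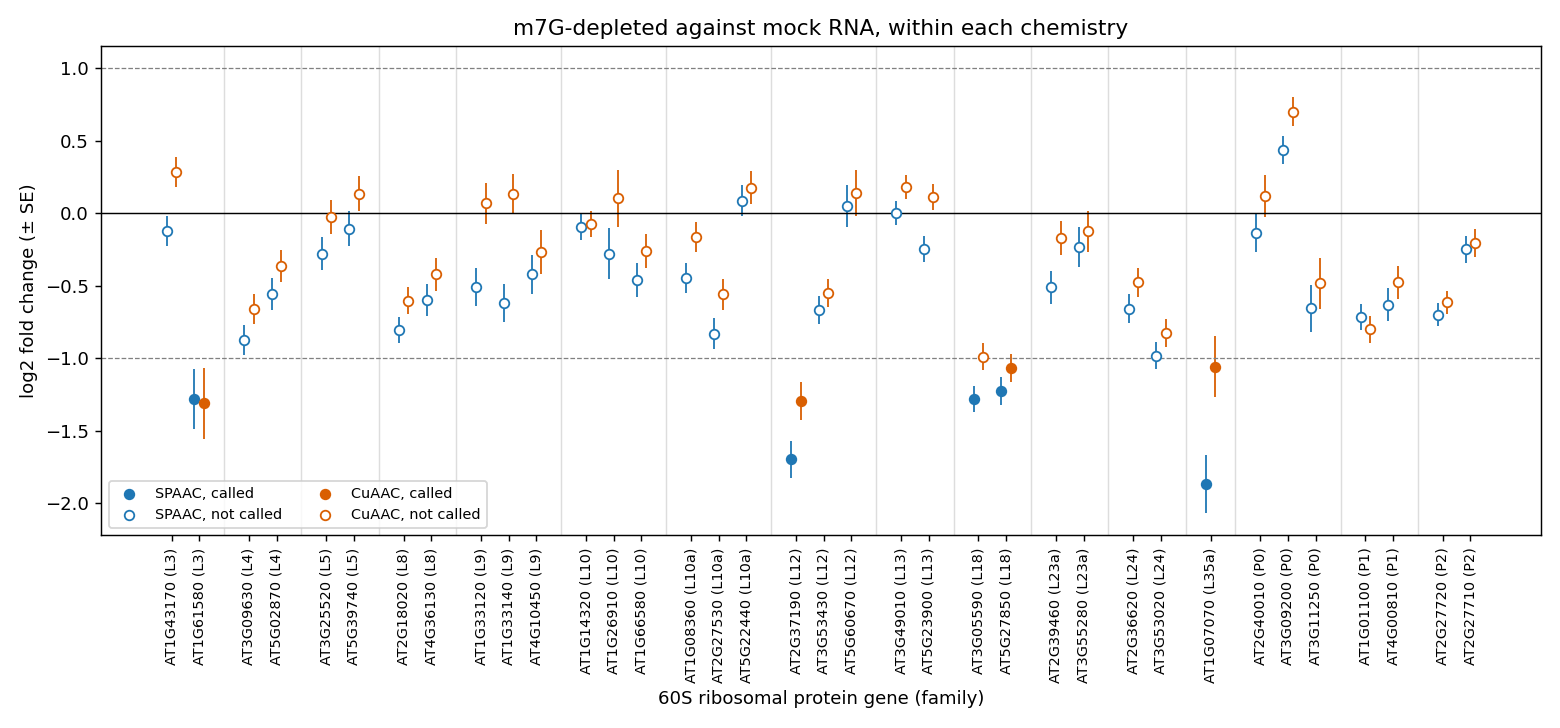
Log2 fold change (± SE) of m7G-depleted against mock RNA for each tested 60S ribosomal protein gene, in SPAAC (blue) and CuAAC (orange), paralogs side by side; filled points passed an adjusted p under 0.05 and the 2-fold lines (dashed). AT1G07070, AT2G37190, RPL3B (AT1G61580) and AT5G27850 lie below -1 in both chemistries, and AT3G09200 is the highest point in both, at 0.44 and 0.70.

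The depletion effect itself was compared between the chemistries by an interaction term. None of the 36 genes was called by edgeR's quasi-likelihood test or by DESeq2. Of the 36, 8 had an unadjusted p under 0.05, against 828 of all 21456. Of all tested genes 0.00466% were called toward lower values and 0% toward higher. By adjusted p alone 0 of the 36 passed, against 0.00932% and 0.00466% of all genes. The differences of the effects, SPAAC minus CuAAC, ran from -0.81 to 0.08 on the log2 scale. They were below 0 for 34 of the 36 genes, against 11506 of all 21456, with medians of -0.20 and -0.02. With a replicate block and length offsets these medians were -0.16 and -0.03. Genes share libraries, so this lean is a description with no test.

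Other genes of the same subunit were read as a background from a list of 86 further 60S protein genes, of which 79 have a matching annotation and 77 were tested. By the same call rule 33 of the 77 were lower and 2 higher in mock SPAAC against mRNA-seq, where 5.17% and 1.9% of all tested genes were, and 24 were lower and 2 higher in mock CuAAC, against 11.2% and 5.09%. Scaled by library totals instead, these counts were 15 lower and 7 higher in SPAAC and 13 lower and 9 higher in CuAAC. Of all 21456 genes 356 were lower and 6901 higher on that scale in SPAAC, and 1012 and 5599 in CuAAC. The L27 gene AT3G22230 went from 132 ± 11.5 CPM in mRNA-seq to 22.0 ± 4.07 in mock SPAAC (log2 fold change -2.58 ± 0.12, adjusted p = 5.48e-13), and AT4G13170, of L13a, was higher in both captures (1.02 ± 0.10 and 1.17 ± 0.10). After m7G depletion 28 of the 77 were lower in SPAAC, against 9.66% of all genes, and 12 in CuAAC, against 8.24%, with none higher. With a replicate block and length offsets 6 were lower in SPAAC, and 1 was lower and 1 higher in CuAAC. Of all 21456 genes 1086 were lower and 717 higher with these offsets in SPAAC, and 978 and 720 in CuAAC. Between the chemistries none of the 77 was called in mock RNA, and 3 were lower in m7G-depleted SPAAC than in m7G-depleted CuAAC, where 0.895% of all genes were. The L37 gene AT3G16080 was at 7.20 ± 0.974 against 16.1 ± 1.57 CPM there (log2 fold change -1.16 ± 0.14, adjusted p = 1.36e-06). With a replicate block and length offsets 1 of the 77 was lower, against 218 of all 21456 genes.

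Of 16 tested genes for 60S assembly and export, 3 were lower in mock SPAAC, against 5.17% of all genes, and 4 in mock CuAAC, against 11.2%, led by FIB1, a methyltransferase of rRNA modification (-1.95 ± 0.11 and -1.73 ± 0.11). With library totals 1 was lower and 4 higher in SPAAC and 2 were lower and 1 higher in CuAAC. All 21456 genes had 356 lower and 6901 higher on that scale in SPAAC, and 1012 and 5599 in CuAAC. PUM23, a nucleolar protein of rRNA processing, was higher after depletion in both chemistries (1.11 ± 0.12 and 1.14 ± 0.13), where 7.37% and 6.32% of all genes were higher. With a replicate block and length offsets none of the 16 was called after depletion. All genes had 1086 lower and 717 higher there in SPAAC, and 978 and 720 in CuAAC.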

How the data were processed

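Poly(A) RNA was measured in 15 libraries. The authors deposited raw counts, a whole-number count per gene with the gene's exon length, per the file headers. STAR 2.7.3a, featureCounts 2.0.0 and DESeq2 are named in the submitters' processing notes. Strand setting, genome build and handling of multi-mapping reads were not given in the sources used here. RefSeq TAIR10.1 held 37065 of the 37361 gene identifiers (99.208%); its symbols, coordinates and sequences were used, and all 37 members had equal exon lengths there.

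Counts were fitted with edgeR 4.0.16 in R 4.3.3 (quasi-likelihood F test, robust, TMM factors, filterByExpr) over all 15 libraries and 21456 genes by group, with Benjamini-Hochberg adjustment over all genes; a gene was called at an adjusted p under 0.05 and at least 2-fold. The common biological coefficient of variation was 12.3%. Replicates of a group differed by more than sampling noise (chi-square per degree of freedom 4.05 to 16.5). Deviations of libraries with the same number correlated above 0.1 in 30 of 30 pairs across groups (0.188 to 0.761), the sign used for pairing, so a replicate block was run as an alternative. Paralog shares were tested by exact permutation, in Python 3.11.15 and numpy 2.4.6. The code was tested on simulated data. Alternatives were other scalings, no count filter, DESeq2 1.42.0, only the compared groups, the call without a fold threshold, the replicate block with and without length offsets, and leaving out each library. Full values were given for the lead and lowest paralog of each family and the 4 members with the largest change in each comparison, and for others the text turns on; of other 60S genes, the called gene with the largest change in each direction at 10 CPM or more could be named. The members and lists were chosen with earlier results of these data known. Proteins were not used here. Library depth, from 3806556 to 19798778 counts, limits the genes of a few CPM most.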

Additional observations from a re-analysis of the deposited data

How the results depend on the processing

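With library totals in place of TMM, no 60S gene was lower against mRNA-seq in mock SPAAC or mock CuAAC (0 in each), and 7 and 8 were higher. Of all 21456 genes 356 were lower and 6901 higher in SPAAC, and 1012 and 5599 in CuAAC. The median log2 fold changes of the 60S genes reversed to 0.153 and 0.0839. The other scaling (DESeq2 size factors), DESeq2 itself, no count filter and fitting only the compared groups kept every count of calls of the 36 genes within 1.5 times. With no count filter 11 were lower in mock CuAAC, where SAC52 and AT4G36130 lost their calls. By adjusted p alone, with no fold threshold, 21 genes were lower and 6 higher in mock SPAAC against mRNA-seq, 20 and 9 in mock CuAAC, 12 and 1 in mock SPAAC against mock CuAAC, 26 and 1 after m7G depletion in SPAAC, 17 and 2 in CuAAC, and 25 lower in m7G-depleted SPAAC against m7G-depleted CuAAC. The replicate block left the counts of calls as they were in every comparison (13 lower and 1 higher in both captures, 5 and 4 lower after depletion) and moved P1 past the threshold, with a range of group means of 5.37 points and an adjusted p of 0.0254 by exact permutation within number. With length offsets added to the replicate block, 2 of the 36 genes were lower after depletion in SPAAC, against 1086 of all 21456. In CuAAC 1 was lower and 1 higher, against 978 and 720 of all genes, and the median reversed to 0.0408. The offsets are built to remove a trend with length. They also moved the median of mock SPAAC against mock CuAAC from -0.19 to -0.0189, and that of the m7G-depleted libraries from -0.39 to -0.2458.

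The other 60S genes and the assembly genes were refitted under the settings that moved the counts above, a choice made after seeing the data. With library totals, 15 of the 77 other 60S genes were lower and 7 higher in mock SPAAC, and 13 and 9 in mock CuAAC. Of the 16 assembly genes 1 was lower and 4 higher in SPAAC, and 2 and 1 in CuAAC. Of all 21456 genes 356 were lower and 6901 higher on this scale in SPAAC, and 1012 and 5599 in CuAAC. With the replicate block and length offsets, 6 of the 77 were lower after depletion in SPAAC, and 1 was lower and 1 higher in CuAAC. In m7G-depleted SPAAC against CuAAC 1 of the 77 was lower. After depletion 0 assembly genes were higher in either chemistry. All genes had 1086 lower and 717 higher after depletion in SPAAC, and 978 and 720 in CuAAC. Between the m7G-depleted captures 218 of all genes were lower and 860 higher in SPAAC.

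Leaving out each library in turn gave 13 to 15 lower in mock SPAAC, 11 to 13 in mock CuAAC, 5 to 6 after depletion in SPAAC, 2 to 5 in CuAAC (2 without mock CuAAC replicate 2) and 0 to 1 in m7G-depleted SPAAC against CuAAC (1 without m7G-depleted CuAAC replicate 2). The L8 range of shares ran from 3.18 to 4.51 points and passed at the highest. The lowest genes, such as AT2G40010 at 4.03 to 5.76 CPM in mRNA-seq, rest on few counts.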
